A study of Mus musculus with 6 samples.

Results

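Transcripts of 42 genes of the cornified envelope and the skin barrier were followed in sorted epidermal basal cells of virgin and pregnant mice. The genes were picked by their symbols in the platform annotation, and the probe set with the highest mean log2 signal over the 6 arrays stood for each gene. Of the 42 genes, out of 18193 genes on the array, 39 had a probe set, and Lce1e, Sprr4 and Flg2 had none. A test required present calls on both arrays in 1 or more of the groups, and 29 members met this, out of 10993 genes that did. All mice were female C57BL/6, given as 10 weeks old in the sample labels and as 8 to 12 weeks old in the description of the series. The 3 groups had 2 arrays each: ventral skin of virgin mice (virgin ventral), and dorsal skin (16 dpc dorsal) or ventral skin (16 dpc ventral) of mice pregnant for 16 days, with dpc standing for days post coitum. In every group the cells had been freed with trypsin in the cold overnight and sorted as α6-integrin-positive and propidium iodide-negative, so live cells carrying the integrin that ties basal keratinocytes to the basement membrane were taken, and no marker against other integrin-positive cells was named. Cells of virgin dorsal skin are not analysed here, and a change with pregnancy can be read at the ventral site only.

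Keratinocytes leave the basal layer, pass through the spinous and granular layers and end as dead cornified cells. In the granular layer the scaffold proteins involucrin, envoplakin and periplakin are laid under the membrane and cross-linked by transglutaminases. Loricrin and the small proline-rich (Sprr) and late cornified envelope (Lce) proteins then reinforce this envelope, filaggrin bundles keratin filaments and is broken down by proteases, and lipid enzymes make the ceramides that seal the spaces between the dead cells. Most of these envelope genes lie side by side in the epidermal differentiation complex. Of the 42 members, 25 lie on mouse chromosome 3 in the RefSeq gene table, in an order that starts at Lor, passes through the Sprr genes, Ivl and the Lce genes, and ends with Flg2, Flg, Hrnr and Rptn.

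Upstream sequence is shown for 4 of these genes, because their transcripts behaved differently below: Lor and Flg stood lower at 16 dpc, Lce1d stood higher, and Sprr1a was high on 1 virgin array. Each line gives the 250 bases before the gene's start, 5′ to 3′ on the gene's strand, from RefSeq (build GRCm38.p6). Capitals mark TGANTCA, the letters that AP-1 factors of differentiating keratinocytes bind, and TATAAA, the letters of the TATA box, each searched on both strands. No overlap between the 2 motifs occurred in these 4 sequences.
Lor, chr3:92083143-92083392, minus strand: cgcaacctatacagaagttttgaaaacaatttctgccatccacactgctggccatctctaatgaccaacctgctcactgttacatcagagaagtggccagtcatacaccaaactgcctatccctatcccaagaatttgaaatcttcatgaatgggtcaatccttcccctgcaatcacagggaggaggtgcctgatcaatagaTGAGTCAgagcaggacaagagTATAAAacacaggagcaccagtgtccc
Flg, chr3:93273296-93273545, plus strand: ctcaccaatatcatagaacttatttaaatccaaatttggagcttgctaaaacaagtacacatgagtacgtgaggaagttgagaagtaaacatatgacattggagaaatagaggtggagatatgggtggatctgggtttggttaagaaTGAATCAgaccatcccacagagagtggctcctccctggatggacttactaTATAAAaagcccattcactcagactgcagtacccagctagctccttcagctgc
Sprr1a, chr3:92485882-92486131, minus strand: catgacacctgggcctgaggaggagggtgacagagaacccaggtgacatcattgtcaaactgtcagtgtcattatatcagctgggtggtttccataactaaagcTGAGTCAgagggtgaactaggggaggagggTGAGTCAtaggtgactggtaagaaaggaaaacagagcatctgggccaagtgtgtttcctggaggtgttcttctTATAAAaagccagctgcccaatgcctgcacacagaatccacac
Lce1d, chr3:92687211-92687460, minus strand: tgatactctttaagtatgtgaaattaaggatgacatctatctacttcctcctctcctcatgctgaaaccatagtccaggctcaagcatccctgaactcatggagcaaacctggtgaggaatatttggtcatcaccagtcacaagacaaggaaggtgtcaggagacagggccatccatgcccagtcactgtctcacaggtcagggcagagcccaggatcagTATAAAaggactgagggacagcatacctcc

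TGANTCA was found once upstream of Lor and of Flg, at 2 places upstream of Sprr1a and at 0 places upstream of Lce1d, and all 4 genes held 1 TATAAA. RefSeq promoters were at hand for 37 of the 42 members, all but Calml3, Lce1f, Aloxe3, Evpl and Ppl. TGANTCA was in 13 of the 37, against 6.75% of all 32851 promoters over the same 250 bases. The 13 were Lor, Flg, Flg2, Rptn, Sprr1a, Sprr1b, Sprr2d, Sprr2h, Ivl, Scel, Krtdap, Sbsn and Dmkn, while 0 of 12 Lce genes, 0 of 4 lipid enzyme genes and neither protease gene held it. TATAAA was in 13 of the 37 members, against 12.4% of all promoters. For both motifs a member counted if any promoter entry of its symbol matched, while the shares of all promoters count single entries, so the 2 are not strictly alike. A match is a description of the letters and not a binding site.

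On the arrays a signal intensity in arbitrary units and a detection call were given per probe set. Present calls covered 47.2% to 53.3% of 45101 probe sets per array, and the median signal ran from 61.1 to 78.9. The 12 markers of basal keratinocytes fixed as a list, among them Krt5, Krt14 and Itga6, were present on all 6 arrays, and so were the 12 markers of spinous keratinocytes, among them Krt1 and Krt10. The sorted cells thus carried RNA of both layers, and in such bulk RNA fewer differentiating cells and less RNA per cell cannot be told apart. The actin 3′ to 5′ signal ratio, a sign of RNA quality, reached 4.47 on 16 dpc dorsal replicate 2 and 3.90 on 16 dpc ventral replicate 2, and it was 1.78 to 2.46 on the other 4 arrays. Markers of antigen-presenting cells such as Langerhans cells stood higher in 16 dpc ventral than in virgin ventral cells without overlap for 7 of the 8 tested, against 23.8% of all genes. Of these 7, Cd207 and Cd86 were tested only through their present calls in 16 dpc ventral cells, which favours a higher value there. Csf1r passed the threshold, at a log2 fold change of 1.76 ± 0.25 (adjusted p = 0.0406, limma). The summed signal of all 9 on the array was 7332 to 7817 in virgin ventral, 10654 to 11991 in 16 dpc dorsal cells and 8833 to 11831 in 16 dpc ventral cells. Epcam, the 1 tested marker with a lower mean, gave 3090 and 5137 of this in virgin ventral and 3480 and 2908 in 16 dpc ventral cells. None of the 9 was listed at 0, and Cd207 was not called present on either virgin array. The part of other cells or of RNA quality in the differences below was not tested. Whether replicates were separate animals is not stated in the labels, so p-values measure only the spread between these arrays, which may be technical.

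Of the 39 measured members 25 were present on all 6 arrays and 7 on none. The 7 without a present call were Lce3b, Lce3c, Sprr2d, Sprr2h, Sprr3, Rptn and Alox12b, the last of which encodes a lipoxygenase of the barrier lipid pathway. Lce1g and Lce1i were present on 1 array each, replicate 2 of the 16 dpc dorsal group, and Sprr1b on virgin replicate 2 alone. Among the 29 members tested were 8 of 13 Lce genes, 1 of 6 Sprr genes (Sprr1a), 3 of 5 in the group of loricrin, filaggrin and its S100-fused relatives, both filaggrin-processing proteases, all 5 scaffold genes, 4 of 5 lipid enzymes and all 6 secreted and surface proteins. Some Lce genes were tested through 1 group only, which favours that group: Lce1f and Lce1l through 16 dpc dorsal and Lce1h through 16 dpc ventral. Members present on both arrays numbered 26 in virgin ventral, 27 in 16 dpc dorsal cells and 27 in 16 dpc ventral cells.

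**Figure D1:**
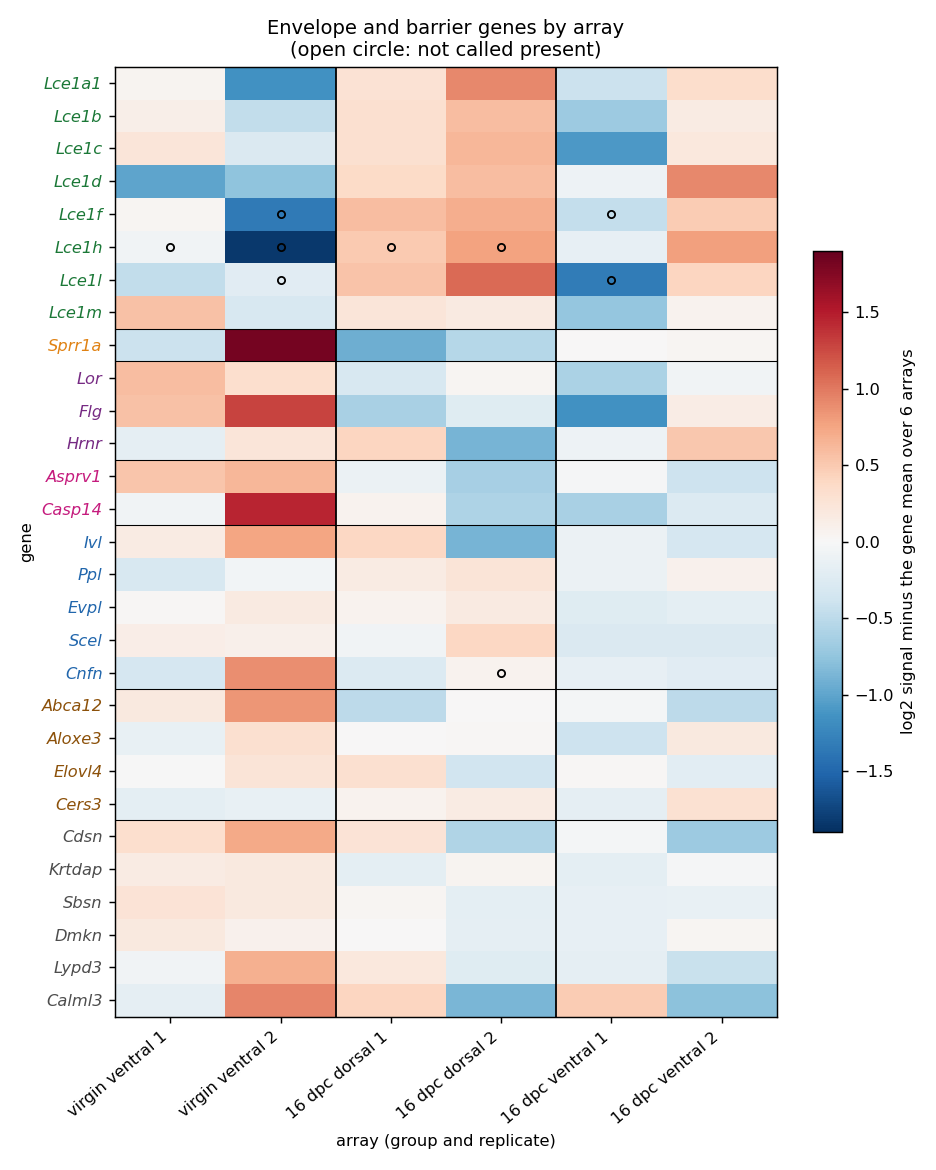
Log2 signal of the 29 members tested (rows, coloured by role) on the 6 arrays (columns), shown as the difference from each gene's mean over the arrays. Open circles mark arrays on which the gene was not called present. Most Lce rows at the top are bluest on virgin replicate 2 or 16 dpc ventral replicate 1, while most rows below them are reddest on virgin replicate 2.

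The comparison of 16 dpc ventral with virgin ventral cells addressed how these transcripts differed between pregnancy and the virgin state in the skin that expands, and log2 fold changes are 16 dpc ventral over virgin ventral. No member passed an adjusted p of 0.05 in limma (0 of 29), where 22 of 10993 genes (0.2%) did. Below an unadjusted p of 0.05 were 2 members that were higher and 6 that were lower, against 11.6% of all genes in either direction. The 2 higher were Lce1d and Lce1h. Since Lce1h was tested only through 16 dpc ventral cells, a higher value was favoured beforehand, also in the Lce counts and median below. In 13 of the 29 members both 16 dpc ventral arrays lay below both virgin arrays, as in 19.8% of all genes, and in 1 member, Lce1d, both lay above, as in 23.8% of all genes. All 13 were genes other than Lce. The median log2 fold change was -0.37 over all 29 (7 higher and 22 lower), -0.46 over the 21 members other than Lce (3 and 18), 0.21 over the 8 Lce genes (4 and 4) and 0.02 over all 10993 genes. Within replicate 1 the median over the 29 was -0.34 and within replicate 2 it was -0.33. Counts of higher and lower genes, here and below, compare means of log2 signal.

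Markers of other cells moved beside these members. Of the 12 spinous markers, which include the members Krtdap and Sbsn, 2 were higher and 10 lower in 16 dpc ventral than in virgin ventral cells. Of the latter 7 were without overlap, against 19.8% of all genes. The median log2 fold change was -0.22, against -0.03 for the 12 basal markers (6 higher and 6 lower). The summed signal of the spinous markers was 200391 to 203094 in virgin ventral, 179511 to 201580 in 16 dpc dorsal cells and 175879 to 181578 in 16 dpc ventral cells. All 10 granular markers were tested, among them the members Lor, Flg, Ivl, Casp14 and Cdsn. Without overlap 8 were lower and 2 higher, against 19.8% and 23.8% of all genes, at a median of -0.80. The 2 higher were Tgm3, given below, and Krt2. Krt2 gave 386 and 484 in virgin ventral, 306 and 207 in 16 dpc dorsal cells and 1899 and 1252 in 16 dpc ventral cells. Its log2 fold change was 1.83 ± 0.28 over virgin ventral (adjusted p = 0.0517, limma). Over 16 dpc dorsal cells it was 2.62 ± 0.28 and passed the threshold (adjusted p = 0.0188, limma). Of 10 markers of mammary epithelium, the milk-forming tissue under the ventral skin, 6 were tested. The keratins Krt7, Krt8, Krt18 and Krt19 were lower without overlap, as 19.8% of all genes were. For Krt8 and Krt19 this direction was favoured beforehand, since they were tested only through virgin ventral cells, where they were high. The casein genes Csn2 and Csn3 had higher means, with log2 fold changes of 6.71 ± 1.69 and 1.41 ± 0.72, Csn2 without overlap. Csn2 gave 172 and 2.29 in virgin ventral, 204 and 348 in 16 dpc dorsal cells and 6185 and 699 in 16 dpc ventral cells. Its fold change rests much on virgin replicate 2, where it was not called present. Both dorsal arrays called it present. The summed signal of the 10 was 986 to 1733 in virgin ventral, 506 to 825 in 16 dpc dorsal cells and 1111 to 7541 in 16 dpc ventral cells, highest on replicate 1, and none was listed at 0. Lalba and Lao1 were present on no array. The part of these markers in the lower members was not tested.

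**Figure D2:**
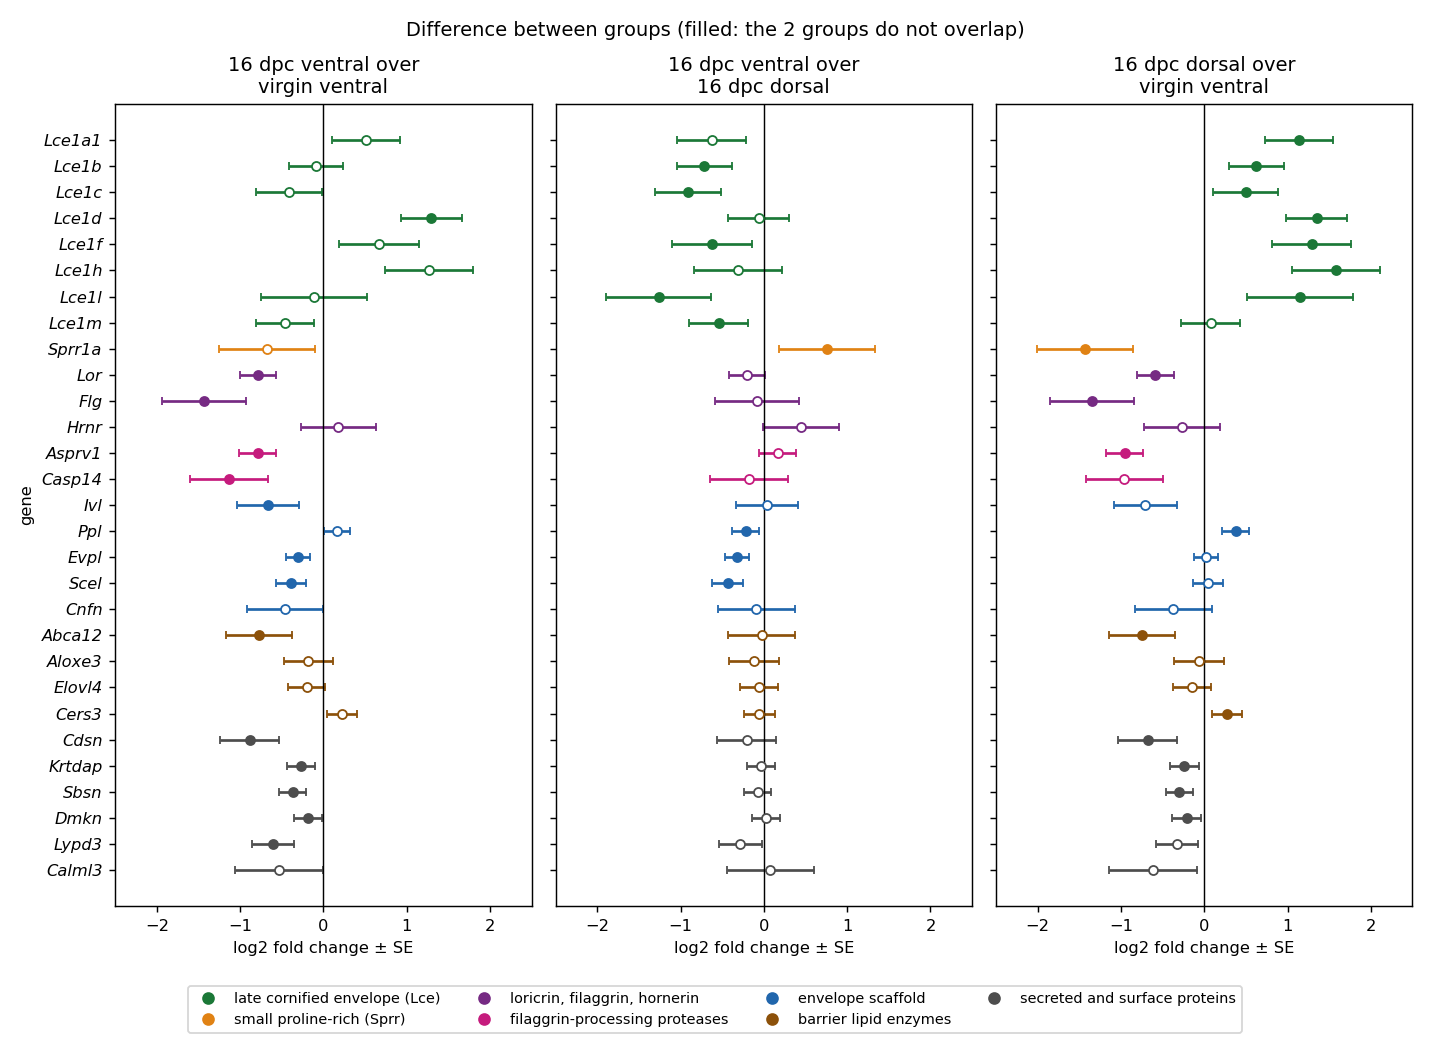
Log2 fold change ± SE of the 29 members in the 3 comparisons, from the fit over all 6 arrays, with colour giving the role and filled points the members whose 2 groups do not overlap. In the left panel filled points lie left of 0 for 13 members outside the Lce family and right of 0 for Lce1d. In the right panel all 8 Lce genes lie right of 0.

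Loricrin and filaggrin, the main late proteins of the granular layer, stood lower in 16 dpc ventral than in virgin ventral cells, although neither passed the threshold. Lor, which encodes the chief protein of the mature envelope, gave signals of 2338 and 1945 on the virgin ventral arrays, 1264 and 1598 on the 16 dpc dorsal arrays and 1026 and 1487 on the 16 dpc ventral arrays. Both virgin arrays thus lay above all 4 arrays of pregnant mice. The log2 fold change of 16 dpc ventral over virgin ventral was -0.79 ± 0.22 (SE, n = 2 arrays per group, adjusted p = 0.248, limma), and another detected probe set of Lor gave -0.63. Flg, which encodes filaggrin, gave 119 and 198 in virgin ventral, 53.0 and 69.2 in 16 dpc dorsal cells and 36.4 and 89.4 in 16 dpc ventral cells. Here too the virgin arrays were the 2 highest, and the log2 fold change was -1.43 ± 0.51 (adjusted p = 0.339, limma). Hrnr, which encodes the filaggrin relative hornerin, did not share this order: it gave 125 and 166, then 187 and 76.1, then 132 and 200.5, with every group overlapping the others and a log2 fold change of 0.18 ± 0.45.

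Without the 2 arrays of high actin ratio, which leaves 1 array in each 16 dpc group assumed to vary like the virgin arrays, Lor passed the threshold, at a log2 fold change of -1.06 (adjusted p = 0.0291, limma). It was the only member to do so under the alternatives tried, and Flg stood at -2.08 (adjusted p = 0.0631) in that fit. Over the other alternatives the adjusted p of Lor ran from 0.135 to 0.501.

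Both proteases that act on profilaggrin were lower in the same direction. Asprv1, the aspartic protease that cuts profilaggrin linkers, gave 1245 and 1347 in virgin ventral, 798 and 560.5 in 16 dpc dorsal cells and 851 and 661 in 16 dpc ventral cells. No array of a pregnant mouse reached the virgin level, and the log2 fold change was -0.79 ± 0.22 (adjusted p = 0.248, limma). Casp14, the caspase of the cornified layer that degrades filaggrin, gave 221 and 632, then 241 and 154, then 150.2 and 194. Its 16 dpc ventral arrays lay below both virgin arrays, and the log2 fold change was -1.13 ± 0.47 (adjusted p = 0.398, limma), at -0.56 within replicate 1 and -1.71 within replicate 2. A further detected probe set of Casp14 gave -0.11, so its probe sets disagreed on the size.

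**Figure D3:**
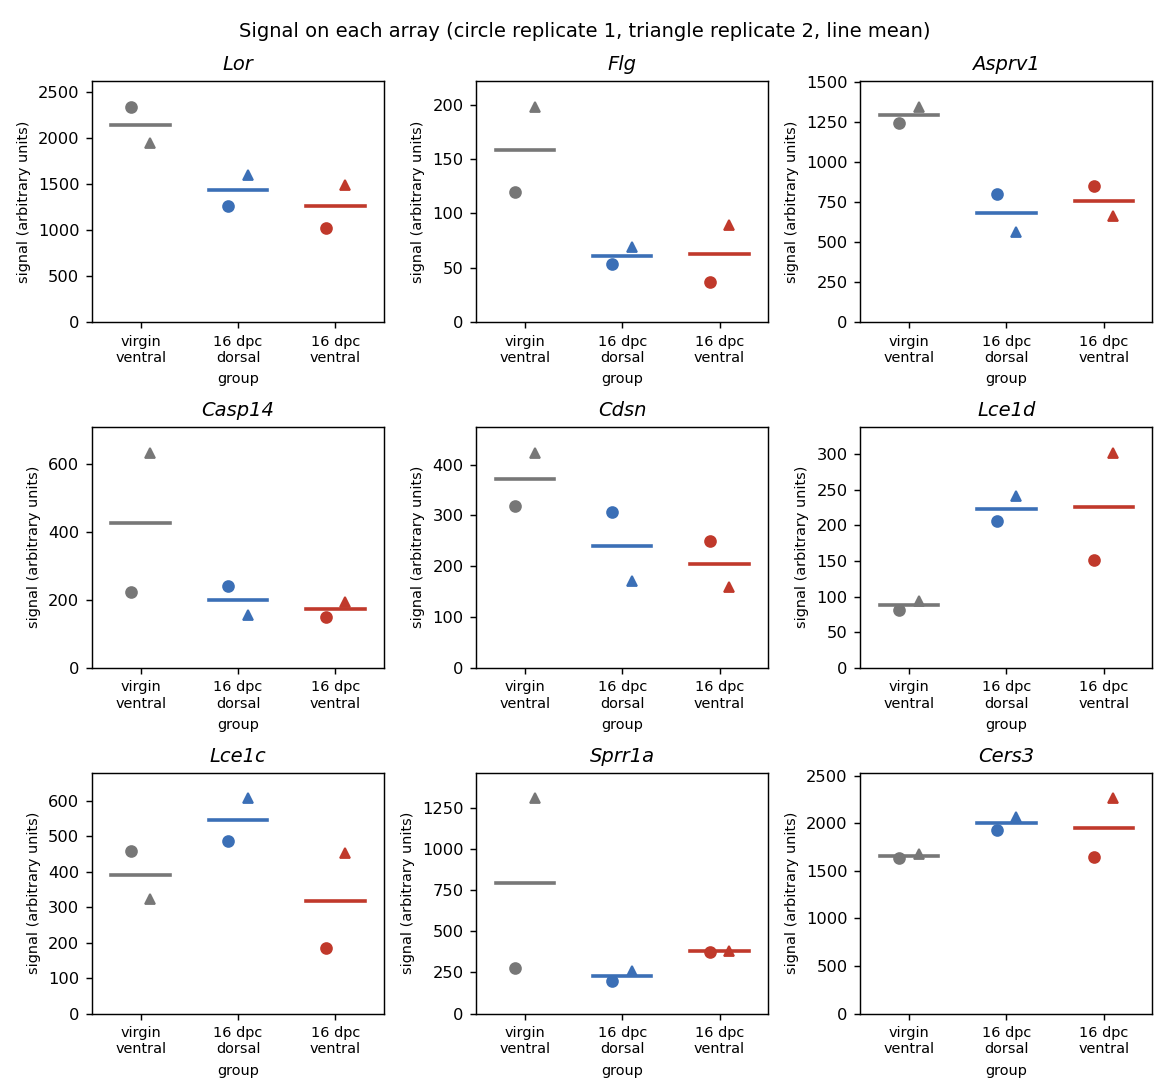
Signal in arbitrary units of 9 members on each array, by group, with replicate 1 as circles, replicate 2 as triangles and the group mean as a line, each gene on its own axis from 0. Both virgin arrays of Lor, Flg, Asprv1 and Cdsn lie above all 4 arrays of pregnant mice, those of Lce1d lie below all 4, and the virgin mean of Sprr1a rests on replicate 2 at 1309.

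Among the secreted and surface proteins of differentiating keratinocytes, all 6 had lower means in 16 dpc ventral cells. In 5 this was without overlap, against 19.8% of all genes. Cdsn, which encodes corneodesmosin of the junctions between corneocytes, gave 319 and 424 in virgin ventral, 307 and 172 in 16 dpc dorsal cells and 249 and 159 in 16 dpc ventral cells, with a log2 fold change of -0.89 ± 0.35 (adjusted p = 0.392, limma). Lypd3, a surface protein of the upper layers, gave 2581 and 4324, then 3106 and 2293, then 2398 and 2009 (-0.61 ± 0.26, adjusted p = 0.411). The differences of the very bright Krtdap (-0.27 ± 0.17), Sbsn (-0.37 ± 0.16) and Dmkn (-0.19 ± 0.17) were smaller, with signals from 19483 to 28209.6 over the 6 arrays of the 3 genes. In all 3 both virgin arrays lay above the 4 arrays of pregnant mice.

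Calml3, a calmodulin-like protein of keratinocytes, was the member of this group whose arrays overlapped, at 873 and 1873, 1299 and 536, and 1366 and 569 (log2 fold change -0.54 ± 0.53). It was highest on virgin replicate 2 and lowest on replicate 2 of both 16 dpc groups. The summed signal of 10 markers of the hair follicle infundibulum and outer root sheath was likewise highest on virgin replicate 2 and lowest on replicate 2 of both 16 dpc groups, at 25522 and 45976 in virgin ventral, 31699 and 19255 in 16 dpc dorsal cells and 31355 and 13095 in 16 dpc ventral cells. Of these 10 markers 9 were tested, 1 higher and 8 lower in mean, with 1 of them lower without overlap, against 19.8% of all genes. None was at 0, and Krt75 was present on no array. Their part in the values of Calml3 and of the other members was not tested.

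In the envelope scaffold the median log2 fold change was -0.39, and 3 of 5 genes were lower without overlap, against 19.8% of all genes. Ivl, the early envelope protein involucrin, gave 994 and 1496 in virgin ventral, 1165 and 480.4 in 16 dpc dorsal cells and 824 and 715 in 16 dpc ventral cells (a log2 fold change of -0.67 ± 0.38, adjusted p = 0.532, limma). Evpl, which encodes envoplakin, gave 3825 and 4253, then 3935 and 4238, then 3213 and 3301, so that the 16 dpc ventral arrays lay below the arrays of both other groups (-0.31 ± 0.14). Scel, which encodes sciellin, showed the same order with 17086 and 16796, 14925 and 20436, and 12961 and 12865 (-0.39 ± 0.18). Ppl, the partner of envoplakin, gave 4239 and 5054, then 5847 and 6189, then 4828 and 5543, with the dorsal arrays highest (0.16 ± 0.16). Cnfn, which encodes cornifelin, was dim, at 62.5 to 144 over the 6 arrays, and was not called present on 1 dorsal array.

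The barrier lipid enzymes had a median log2 fold change of -0.19 over 4 genes, 1 of them lower without overlap, against 19.8% of all genes. Abca12, which carries glucosylceramides into lamellar granules, was the 1 lipid gene lower without overlap, at 104 and 164 in virgin ventral, 65.5 and 92.8 in 16 dpc dorsal cells and 89.6 and 65.3 in 16 dpc ventral cells (-0.78 ± 0.40, adjusted p = 0.492, limma). Cers3, the synthase of ceramides with ultra-long chains, gave 1636 and 1676, then 1935 and 2068, then 1645 and 2263 (0.22 ± 0.18). Elovl4, which elongates those chains, gave 4319.6 and 5159, then 5387 and 3384, then 4437 and 3793 (-0.20 ± 0.23), and a further probe set gave -0.57. Aloxe3, the partner lipoxygenase of Alox12b, stayed between 169 and 275 on all 6 arrays (-0.18 ± 0.30). For Cers3, Elovl4 and Aloxe3 the 16 dpc ventral and virgin ventral arrays overlapped. The dorsal arrays of Cers3 lay above both virgin arrays.

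The Lce genes had no common direction between virgin and pregnant ventral cells. These genes encode small late proteins that are added to the inner side of the envelope. Lce1d gave 80.5 and 94.4 in virgin ventral, 206 and 241 in 16 dpc dorsal cells and 151 and 302 in 16 dpc ventral cells. Every array of a pregnant mouse lay above both virgin arrays, and the log2 fold change was 1.29 ± 0.37 for ventral cells (adjusted p = 0.248, limma) and 1.35 ± 0.37 for dorsal cells (adjusted p = 0.515). Lce1h gave 291 and 85.7, then 429 and 519, then 274 and 526, and was called present on the 16 dpc ventral arrays only. Virgin replicate 1 lay above 16 dpc ventral replicate 1, so the groups overlapped, and the gene was tested only because of its calls in 16 dpc ventral cells. Lce1a1 gave 546 and 237, then 634 and 988, then 395 and 666, with the dorsal arrays above the virgin ones.

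The Lce genes differed between the 2 arrays of a group. On the log2 scale, replicate 2 minus replicate 1 had a median over the 8 Lce genes of -0.72 in virgin ventral (2 higher, 6 lower), 0.28 in 16 dpc dorsal (7 and 1) and 0.93 in 16 dpc ventral cells (8 and 0, from 0.75 to 1.73). Over the 21 other members the medians were 0.41, 0.01 and 0.04. The summed Lce signal over the measured family was 2786 and 1649 in virgin ventral, 3205 and 4283 in 16 dpc dorsal cells and 1849 and 3494 in 16 dpc ventral cells. The median Lce log2 fold change of 16 dpc ventral over virgin ventral was -0.65 within replicate 1 and 1.06 within replicate 2, and it was -0.19 without the arrays of high actin ratio and 0.82 without 16 dpc ventral replicate 1. The probe sets of Lce1a1, Lce1d and Lce1h end in _x_at and that of Lce1m in _s_at, marks of probes that can match several transcripts, so how the signal of these 4 divides between near-identical copies is uncertain. Those of Lce1b, Lce1c, Lce1f and Lce1l end in plain _at.

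**Figure D4:**
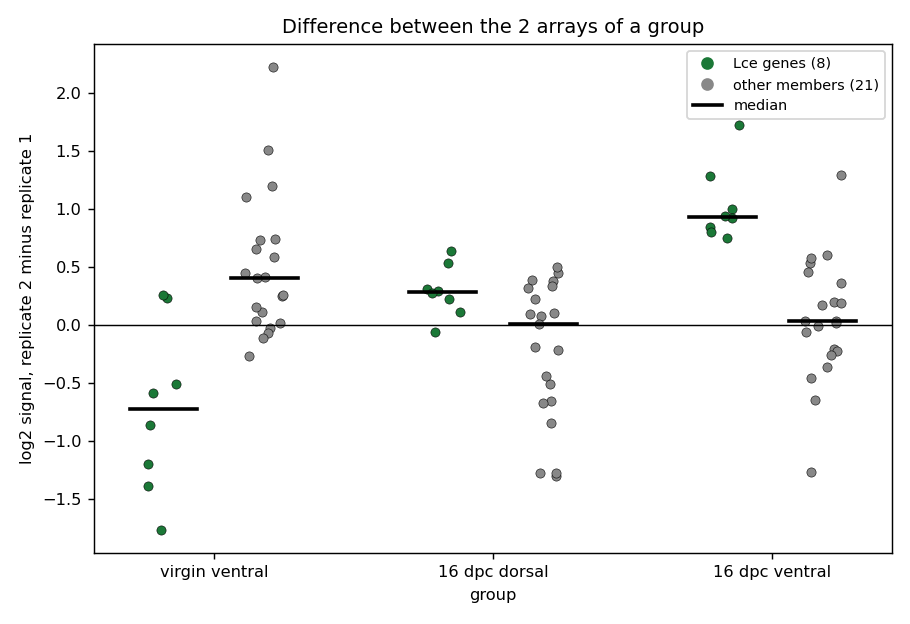
Log2 signal of replicate 2 minus replicate 1 for each member tested, by group, with Lce genes in green, the 21 other members in grey and medians as black bars. The Lce medians run from -0.72 in virgin ventral to 0.93 in 16 dpc ventral cells, while the other members' medians are 0.41, 0.01 and 0.04.

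Sprr1a, which encodes a small proline-rich envelope precursor that stress induces, was the 1 Sprr gene tested. It gave 279.7 and 1309 in virgin ventral, 196 and 256 in 16 dpc dorsal cells and 373 and 383 in 16 dpc ventral cells. Virgin replicate 2 stood alone, and the other 5 arrays lay between 196 and 383. The log2 fold change of 16 dpc ventral over virgin ventral was -0.68 ± 0.58 (adjusted p = 0.702, limma), and without virgin replicate 2 it turned to 0.44. The other 4 Sprr genes on the array had signals from 4.40 to 69.2 and 1 present call among 24.

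The comparison of 16 dpc ventral with 16 dpc dorsal cells addressed whether the abdominal site differed from the back in the same state of pregnancy. It shares the 16 dpc ventral arrays with the comparison above. Of the 29 members 0 passed in limma, where 9 of 10993 genes (0.0819%) did, and 2 members, Lce1c and Scel, both lower, had an unadjusted p below 0.05, against 5.09% of all genes. The 2 ventral arrays lay below both dorsal arrays in 8 members, against 19.7% of all genes, and above them in 1, against 13.1%. The 8 were Lce1b, Lce1c, Lce1f, Lce1l, Lce1m, Ppl, Evpl and Scel, and the 1 was Sprr1a (log2 fold change 0.75 ± 0.58). Of the 8, Lce1f and Lce1l were tested only through the dorsal group, which favours a lower ventral value. The median log2 fold change was -0.12 over the 29 members (6 higher and 23 lower) and -0.03 over all genes.

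All 8 Lce genes had a log2 fold change below 0 in 16 dpc ventral over 16 dpc dorsal cells, with a median of -0.62 (nearest to 0 was Lce1d, at -0.06), and -0.98 within replicate 1 and -0.32 within replicate 2. For Lce1f and Lce1l this direction was favoured beforehand, since they entered the test only through the dorsal group, where they were high. A further, dim probe set of Lce1f, present on 4 arrays, gave 0.48, against -0.62 for the one used. Lce1c gave 488 and 607 in dorsal and 185 and 453 in ventral cells (-0.91 ± 0.39, adjusted p = 0.970, limma), and 459.8 and 323 in virgin ventral cells. Lce1b gave 424 and 519 in dorsal and 213 and 383 in ventral cells (-0.71 ± 0.33), and 372 and 248 in virgin ventral cells. Lce1l, the largest of these differences, was dim: 59.7 and 86.6 in dorsal, 16.45 and 54.4 in ventral and 29.6 and 35.5 in virgin ventral cells (-1.26 ± 0.64), and it was not called present on 16 dpc ventral replicate 1 or virgin replicate 2. In Lce1c, Lce1b and Lce1l the ventral replicate 1 array was the lowest of all 6.

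In the scaffold group Scel stood at -0.44 ± 0.18 (adjusted p = 0.954, limma) and Evpl at -0.33 ± 0.14 (adjusted p = 0.984) in ventral against dorsal cells, and Ppl was lower by the same order of arrays. The proteases and the group of loricrin, filaggrin and hornerin had no member without overlap between the sites, with medians of -0.0050 and -0.09. Hrnr had the largest difference among them (0.44 ± 0.45), which rested on its low value of 76.1 on 16 dpc dorsal replicate 2 and was -0.20 without that array. All 4 lipid enzymes lay between -0.12 and -0.03, with overlap in each, and the secreted and surface proteins between -0.28 and 0.08. A further probe set of Elovl4, present on 6 arrays, lay outside the range of the lipid enzymes, at 0.24.

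For context, 16 dpc dorsal over virgin ventral differs in both site and pregnancy, and shares its virgin arrays with the comparison of ventral cells. In limma 0 of 29 members and 0 of 10993 genes (0%) passed, with an unadjusted p below 0.05 in 5 higher and 4 lower members, against 7.27% of all genes. All 8 Lce genes had higher means of log2 signal in dorsal cells, 7 of them without overlap, against 24.3% of all genes, at a median of 1.14 (0.38 within replicate 1 and 1.32 within replicate 2), and 0.56 without virgin replicate 2. Of these 7, Lce1h was called present on no array of either group, and Lce1f and Lce1l entered the test only through the dorsal group, where they were high. The further probe set of Lce1f did not share this order, at 27.0 and 31.1 in virgin ventral and 14.3 and 32.8 in 16 dpc dorsal cells. The 4 lower members below 0.05 were Lor (-0.59 ± 0.22), Flg (-1.35 ± 0.51), Asprv1 (-0.95 ± 0.22) and Sprr1a (-1.43 ± 0.58), and Ppl was the 1 higher member outside the Lce family (0.38 ± 0.16). Over all 29 the median was -0.21, but it was 0.13 within replicate 1 and -0.28 within replicate 2. Both dorsal arrays lay below both virgin arrays in 9 members, none of them Lce genes, against 13.6% of all genes. In 8 members all 4 arrays of pregnant mice lay below both virgin arrays, against 8.45% of all genes, and in 1 they lay above, against 13.4%. The 8 were Lor, Flg, Asprv1, Abca12, Cdsn, Krtdap, Sbsn and Dmkn, and the 1 was Lce1d.

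Other genes of the same pathways were counted from lists. Of 27 further barrier lipid genes tested, 10 had higher and 17 lower means in 16 dpc ventral than in virgin ventral cells, with a median of -0.29 and 0 past the threshold in limma (unadjusted p below 0.05: 0 higher, 3 lower). The smallest p among them was that of Lipm, an epidermal lipase, at 3800 and 4915 in virgin ventral, 3714 and 3424 in 16 dpc dorsal cells and 2347 and 2319 in 16 dpc ventral cells. Both ventral arrays at 16 dpc lay below the other 4 (log2 fold change -0.89 ± 0.17, adjusted p = 0.102, and -0.61 ± 0.17 against dorsal, adjusted p = 0.551). Sult2b1, which makes cholesterol sulfate, gave 843 and 1034, then 861 and 573, then 531 and 465 (-0.91 ± 0.24 and -0.50 ± 0.24).

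Of 8 further epidermal differentiation complex genes tested all 8 had a log2 fold change below 0 in 16 dpc ventral over virgin ventral cells. Among them 2 were without overlap, against 19.8% of all genes, and Tchhl1 stood at -0.0095. The median was -0.30 and 0 were called (0 below an unadjusted p of 0.05). Kprp, a keratinocyte proline-rich protein, gave 397 and 419.8 in virgin ventral, 238 and 356 in 16 dpc dorsal cells and 249 and 325 in 16 dpc ventral cells (-0.52 ± 0.27). S100a8, an alarmin, was highest on virgin replicate 2, at 263 against 43.0 to 85.0 on the other arrays (-1.13 ± 0.56), as Sprr1a was. Lce1a2 (-0.78 ± 0.30) and Crct1 (-0.49 ± 0.29), neighbours of the Lce members, were lower in 16 dpc ventral than in 16 dpc dorsal cells without overlap.

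Of 26 regulators of terminal differentiation tested, 6 had higher and 20 lower means in 16 dpc ventral than in virgin ventral cells. Of the latter 13 were without overlap, against 19.8% of all genes. The median was -0.26 and 0 were called (unadjusted p below 0.05: 0 higher, 5 lower). Zfp750, a transcription factor of late differentiation, stood at -0.66 ± 0.20 and Satb1, a chromatin organiser of the complex, at -0.63 ± 0.20. Against 16 dpc dorsal cells Ahr stood at -0.34 ± 0.14 and Tfap2c at -0.55 ± 0.26, and Ahr turned to 0.11 where all its probe sets were averaged. Of 9 tight junction genes 7 were lower over virgin ventral, all without overlap, against 19.8% of all genes, and 2 higher. The median was -0.37 and 0 were called (0 higher and 3 lower below 0.05). Marveld2, which encodes tricellulin, stood at -0.86 ± 0.21 over virgin ventral and -0.77 ± 0.21 over dorsal cells, and Cldn4 at -1.34 ± 0.37 and -0.59 ± 0.37.

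The envelope enzymes, desquamation proteases and their inhibitors held the only called genes of these lists. Of 15 tested 3 were higher and 12 lower in 16 dpc ventral than in virgin ventral cells, and 2 passed, both higher. Tgm3, the transglutaminase that cross-links loricrin and small proline-rich proteins, gave 2036 and 1939.9 in virgin ventral, 1464 and 964 in 16 dpc dorsal cells and 5647 and 6036 in 16 dpc ventral cells. On the log2 scale it rose by 1.55 ± 0.20 over virgin ventral (adjusted p = 0.0317, limma) and by 2.30 ± 0.20 over 16 dpc dorsal cells (adjusted p = 0.0152), and a further probe set gave 1.21 and 1.67. Serpinb12, a serine protease inhibitor of surface epithelia, gave 71.8 and 132, then 414 and 219, then 735 and 563, and rose by 2.72 ± 0.39 over virgin ventral cells (adjusted p = 0.0406). Leaving out any 1 virgin or 16 dpc ventral array brought both calls over virgin ventral above the threshold, to adjusted p from 0.0968 to 0.223. The call of Tgm3 over 16 dpc dorsal, the only one of these lists in that comparison, was lost without virgin replicate 1, virgin replicate 2 or 16 dpc ventral replicate 1, at adjusted p from 0.0584 to 0.0664. Klk8, a kallikrein of desquamation, stood at 0.90 ± 0.22 in ventral over dorsal cells of pregnant mice.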

How the data were processed

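RNA of sorted epidermal basal cells was hybridised by the authors to Affymetrix 3′ expression arrays of 45101 probe sets. The deposited files give a signal intensity on a linear scale and a detection call. The submitters' notes name Affymetrix Expression Console version 1, and on every array the deposited intensity had a trimmed mean near 500.003, as MAS5 scaling by the authors gives. With such scaling a shift in the total RNA of a cell stays hidden, and partly degraded RNA loses signal away from the 3′ end. For the arrays' annotation, a genome build was not given in the sources used. The series value table holds the same signals.

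Groups came from the sample labels. The log2 of each signal was taken after a floor of 1. Symbols came from the platform annotation, where 34945 probe sets name 1 gene, 932 several and 9160 none. A gene was read from its probe set of highest mean log2 signal. Differences were fitted with limma 3.58.1 (lmFit, then eBayes with its trend option) under R 4.3.3 over all 6 arrays, with 3 residual and 5.79 prior degrees of freedom, two-sided and adjusted by Benjamini-Hochberg over 10993 genes. The scripts were tested on simulated data. The 2 arrays per group limit precision, and present calls began at signals of 6.34 to 11.3.

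The members, gene lists and rule for named genes were chosen with earlier results of these data known. All 42 members were to be named by detection, with values for Lor, Flg, Ivl, Casp14 and, per role and comparison, those of smallest p (2) and largest change (1), and up to 2 genes of each other list. Values of other members and of some genes of the other and marker lists were chosen after they were seen. Alternatives were the replicate block, leaving out arrays, quantile or median scaling, an added 32 before log2, other filters and probe sets, other spread estimates, and leaving out arrays with an actin ratio above 3.

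The day of gestation in the labels was used, from which the column headers differ slightly.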

Additional observations from a re-analysis of the deposited data

How the results depend on the processing

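No member was called under any alternative but 1: without the arrays of actin ratio above 3, 1 member (Lor) passed over virgin ventral. Same-numbered arrays share a header prefix whose meaning is not given. Their deviations correlated at 0.03 and 0.01 between virgin ventral and the 16 dpc groups, which gave no ground for pairs there. Between the 16 dpc groups they correlated at 0.45, so same-numbered dorsal and ventral arrays shared deviations. The main fit took no pairs in any comparison, and its p-values for 16 dpc ventral over 16 dpc dorsal leave this sharing out. The 16 dpc arrays of actin ratio above 3 also had the same replicate number. The source of the shared deviations was not tested. With the replicate number as a block, 86, 16 and 11 genes were called in 16 dpc ventral over virgin ventral, 16 dpc ventral over 16 dpc dorsal and 16 dpc dorsal over virgin ventral, against 22, 9 and 0, with 0 members in each.

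Counts of called genes over all genes moved most. Leaving out 1 array gave 1 to 59, 0 to 7 and 0 to 33 in the same order. The mean of all probe sets gave 5 and 0 in the first comparisons, no trend on mean level gave 0 and 1, the 4 compared arrays alone gave 46, 0 and 12, and leaving out the arrays of high actin ratio gave 115, 24 and 62. In 16 dpc dorsal over virgin ventral, quantile normalization and an added 32 each gave 7, genes present on all 6 arrays 5, and leaving out probe sets ending in _x_at or _s_at 1. The members' median over virgin ventral ran from -0.43 to -0.23 with 1 array left out and was -0.19 with no filter. Over 16 dpc dorsal it ran from -0.32 to -0.12 with 1 array left out and was -0.30 without the arrays of high actin ratio. In 16 dpc dorsal over virgin ventral it ran from -0.27 to -0.017 with 1 array left out, and was -0.063 with no filter and -0.066 without the arrays of high actin ratio. Signs turned for some members. Over virgin ventral, with 1 array left out, Hrnr ran from -0.13 to 0.48, Sprr1a from -1.79 to 0.44, Aloxe3 from -0.47 to 0.11, Calml3 from -1.17 to 0.10 and Cers3 from -0.01 to 0.45, and without the arrays of high actin ratio Hrnr was -0.13, Cers3 -0.0097 and Calml3 0.10. Over 16 dpc dorsal Hrnr ran from -0.20 to 1.09 with 1 array left out and was -0.51 without the arrays of high actin ratio, and averaging all probe sets put Ahr at 0.11. The causes were not tested. Of the values of single genes and role groups under the alternatives, 20 lost a call (Tgm3 or Serpinb12), 1 gained one, and 14 of single genes changed sign. Of 357 medians of role groups 31 moved by more than the spread between replicates and 24 changed sign. Among the latter, the Lce median over virgin ventral, 0.21, was -0.057 without virgin replicate 2, -0.19 without 16 dpc ventral replicate 2 or without the arrays of high actin ratio, and -0.089 with genes present on all 6 arrays or without probe sets ending in _x_at or _s_at. The median of loricrin, filaggrin and hornerin over 16 dpc dorsal, -0.09, was 0.56 without 16 dpc ventral replicate 1. Members had 7 further probe sets present on 2 or more arrays. Over virgin ventral 7 of these had the sign of the one used, and over 16 dpc dorsal 4 did. Signal over background limits the dim members, and present calls began at 6.34 to 11.3. Brighter members could fail detection too. Lce1h was called absent at 429 on 16 dpc dorsal replicate 1, and Lce1i at 291 on 16 dpc ventral replicate 2.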
